A study of Mus musculus with 12 samples.

Results

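The Src-family kinases are non-receptor tyrosine kinases that sit on the inner face of the plasma membrane and pass on signals from cytokine receptors, integrins and antigen receptors. A tyrosine close to the C-terminal end holds each of them inactive when it is phosphorylated, and Csk, the C-terminal Src kinase, places that phosphate. In blood cells Lyn and Fgr are known from myeloid cells, Lyn and Blk from B cells, Lck and Fyn from T cells, while Src, Yes1 and Fyn are found in many tissues. The 8 genes described here were Blk, Lyn, Lck, Fgr, Fyn, Src, Yes1 and Csk, taken by name from the 49585 genes in the count files. All 8 were found and all had at least 1 count in at least 2 samples.

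RNA-seq had been done on hematopoietic stem cells (HSCs) of 6 WT mice and 6 Pon2-/- mice, which were C57BL/6J and 10 to 14 weeks old. In Pon2-/- mice a gene trap with β-geo, flanked by loxP sites, lies in an intron of Pon2, the gene of an antioxidative paraoxonase. The WT mice were obtained from Charles River. Where the Pon2-/- mice were bred is not given here, so genotype and breeding colony cannot be told apart. The trap leaves some Pon2 protein, and it is present in every cell of the mouse and not in HSCs alone. HSCs were sorted as Lin-, Sca1+, ckit+, CD135- and CD150+, a gate that holds LT-HSCs together with MPP2 cells, in 8 wells of 10 cells per mouse. Counts were given per mouse, and each sample is therefore 1 mouse with 80 cells.

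Csk and Lyn were the most abundant of these transcripts per length, Lck and Fyn came next, and Fgr, Yes1, Src and Blk were low or missing in part of the samples. None of the 6 genes that edgeR tested passed the thresholds between the genotypes, and the filter on low counts left out Blk and Src. In 5 of 6 WT samples Lyn had the highest level per length of the 7 kinases. In the Pon2-/- samples Lyn led in none, Lck led in 3, Fyn in 2 and Blk in 1. The margin was narrow in Pon2-/- sample 6, where Lck made up 38.4% and Lyn 35.1% of the summed level of the 7 kinases. Which kinase led was not tested between the genotypes. Blk was counted in only 2 of the 12 samples, both of them Pon2-/-.

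The totals on genes were 12967791 to 24228280 counts in WT and 14671353 to 23122382 in Pon2-/- samples. Pon2 had 112.7 ± 49.3 counts per 1000000 counts (CPM, mean ± SD, n = 6) in WT and 25.7 ± 12.2 CPM (n = 6) in Pon2-/- samples, with WT values from 56.4 to 202.0 CPM and Pon2-/- values from 1.16 to 33.1 CPM, so that the genotypes did not overlap for the trapped gene. All 12 HSC markers were counted, with summed levels of 2576 to 3039 CPM in WT and 2724 to 3148 CPM in Pon2-/- samples. The sum of 10 erythroid markers was 9.16 to 61.8 CPM in WT and 16.4 to 47.0 CPM in Pon2-/- samples, with Car1 and Ermap among those at 0 in all 12 samples. Hbb-bt and Epor had the most counts of these. Hbb-bt, a beta-globin gene, was at 6.11 to 38.1 CPM in WT and at 0 to 1.11 CPM in Pon2-/- samples. Other erythroid markers did not follow Hbb-bt. Epor was at 0 to 22.3 CPM in WT and at 0 to 21.6 CPM in Pon2-/- samples. Klf1 was at 0 to 2.22 CPM in WT and at 0 to 23.4 CPM in Pon2-/- samples. The sum of 8 megakaryocyte markers, led by Pf4 and Gp9, was 220.5 to 280.9 CPM and 165.6 to 287.8 CPM. Y-linked genes were counted in mice of both genotypes, but not in all mice of either. No stretch of 50 bases was common to the transcripts of any pair of the 8 genes. Lyn had 18.3% of its 50-base stretches in common with other genes, namely the pseudogene Gm11787, which had 0 counts in all samples, and the antisense gene Gm26857, which had 275 counts in all. For Yes1 this share was 8.35%, mostly with the antisense gene Gm10461, which had 173 counts. Smart-seq2 libraries carry no strand, so reads of Lyn or Yes1 and of these antisense partners could not be told apart where the exons overlap.

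The coding ends of the 7 kinases show the feature that makes them targets of Csk. Each stretch below runs from 2 codons before the last tyrosine codon to the last codon before the stop, 5′ to 3′ on the coding strand, with the tyrosine codon in capitals, and was read from the GENCODE M21 transcripts (GRCm38).
Lyn: gggcagTATcagcagcaaccg
Lck: ggccagTACcagccccagcct
Blk: ggccaaTATgagctgcagccc
Fyn: ccccagTATcagcccggtgaaaacctg
Fgr: ccacagTACcagcctggagaccagaca
Src: ccacagTACcagcccggggagaaccta
Yes1: ccacagTACcaaccaggagaaaattta

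In Lyn, Lck and Blk 4 codons follow the tyrosine codon, and in Fyn, Fgr, Src and Yes1 6 codons do. All of these stretches lie in 1 exon, the last of the transcript. They are at chr4:3789921-3789941 on the plus strand for Lyn, chr4:129548801-129548821 on the minus strand for Lck and chr14:63373395-63373415 on the minus strand for Blk. Those of Fyn at chr10:39563943-39563969, of Fgr at chr4:133000314-133000340, of Src at chr2:157469932-157469958 and of Yes1 at chr5:32684730-32684756 are all on the plus strand. The second codon is a glycine codon in all 7 kinases, which in this family carries the myristate anchor, and is not in Csk. In Csk, which lacks a tail tyrosine of this kind, 34 codons follow the last tyrosine codon.

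Lyn (ENSMUSG00000042228.14, chromosome 4 from 3678115 to 3813122, plus strand) acts downstream of KIT and other cytokine receptors and can also start inhibitory signals. Its levels in WT samples 1 to 6 were 51.0, 146.3, 46.1, 39.8, 76.9 and 37.7 CPM. In Pon2-/- samples 1 to 6 they were 42.4, 40.2, 8.70, 20.9, 13.6 and 70.2 CPM. Sample 2 of the WT mice was far above the other samples, 3 of the Pon2-/- samples lay below every WT sample, and Pon2-/- sample 6 lay above 4 WT samples, so the genotypes overlapped. The mean was 66.3 ± 41.7 CPM (SD, n = 6) in WT and 32.7 ± 22.9 CPM (n = 6) in Pon2-/- samples. The log2 fold change of -1.02 (SE 0.53) did not pass edgeR's quasi-likelihood test (unadjusted p = 0.0732, adjusted p = 1.00). A two-sided exact permutation test of mean log2 CPM gave p = 0.0606, where the smallest p this design allows is 0.00216. Without WT sample 2 the log2 fold change was -0.63, and with Y-linked genes as a covariate it was -0.91. In pools of sorted cells, fewer cells of a type and less RNA per cell cannot be told apart, which holds for all values given here.

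Lck (ENSMUSG00000000409.14, chromosome 4 from 129548344 to 129573641, minus strand) is best known as the kinase bound to CD4 and CD8 in T cells. WT samples 1 to 6 had 0, 39.7, 28.9, 36.2, 15.2 and 18.1 CPM. Pon2-/- samples 1 to 6 had 27.6, 57.7, 43.5, 12.5, 13.5 and 55.2 CPM. Thus Lck was present in 11 of 12 samples, with 1 WT sample at 0 and 3 Pon2-/- samples above the highest WT sample, and the ranges overlapped widely. The means were 23.0 ± 14.8 CPM (SD, n = 6) in WT and 34.99 ± 20.1 CPM (n = 6) in Pon2-/- samples, with a log2 fold change of 0.60 (SE 0.95, adjusted p = 1.00 in edgeR). Without WT sample 1, the sample at 0, the log2 fold change was 0.34. Of the 12 markers of T and NK cells, Cd3e, Cd8a, Cd5, Zap70 and Klrd1 were at 0 in all 12 samples. Cd3d, Cd3g, Cd4, Cd247 and Bcl11b were counted in some samples and at 0 in others. The highest of these counts were 119 for Cd4 in Pon2-/- sample 5 and 103 for Cd247 in WT sample 3. The sum of these 12 markers was 175.0 to 356.2 CPM in WT and 115.1 to 367.5 CPM in Pon2-/- samples. Lat and Nkg7, both also found outside T cells, had the most counts among them. The part of T-lineage RNA in the Lck levels was not tested.

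Fyn (ENSMUSG00000019843.14, chromosome 10 from 39368855 to 39565381, plus strand), which acts in T cells and in many other cells, was counted in every sample. The WT levels were 30.2, 0.0528, 8.43, 47.4, 24.7 and 32.2 CPM. The Pon2-/- levels were 63.3, 30.4, 17.2, 4.58, 37.3 and 20.4 CPM. WT sample 2, the sample with the most Lyn, held a single count of Fyn, while the other samples of both genotypes lay in a common range. The log2 fold change was 0.28 (SE 0.93, adjusted p = 1.00 in edgeR) between 23.8 ± 17.2 CPM (SD, n = 6) and 28.9 ± 20.3 CPM (n = 6).

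Csk (ENSMUSG00000032312.7, chromosome 9 from 57626646 to 57653631, minus strand) was the steadiest of the 8 genes. WT samples 1 to 6 had 53.7, 61.1, 88.6, 67.0, 42.2 and 98.5 CPM. Pon2-/- samples 1 to 6 had 97.0, 88.5, 90.5, 47.7, 115.3 and 108.7 CPM. All Pon2-/- samples but number 4 were above 4 of the WT samples or more, and number 4, the one with the most Blk, was near the bottom of the WT range. The mean was 68.5 ± 21.3 CPM (SD, n = 6) in WT and 91.3 ± 23.7 CPM (n = 6) in Pon2-/- samples. The log2 fold change of 0.41 (SE 0.27) did not pass edgeR's test (unadjusted p = 0.149, adjusted p = 1.00), and the two-sided exact permutation test gave p = 0.143.

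**Figure D1:**
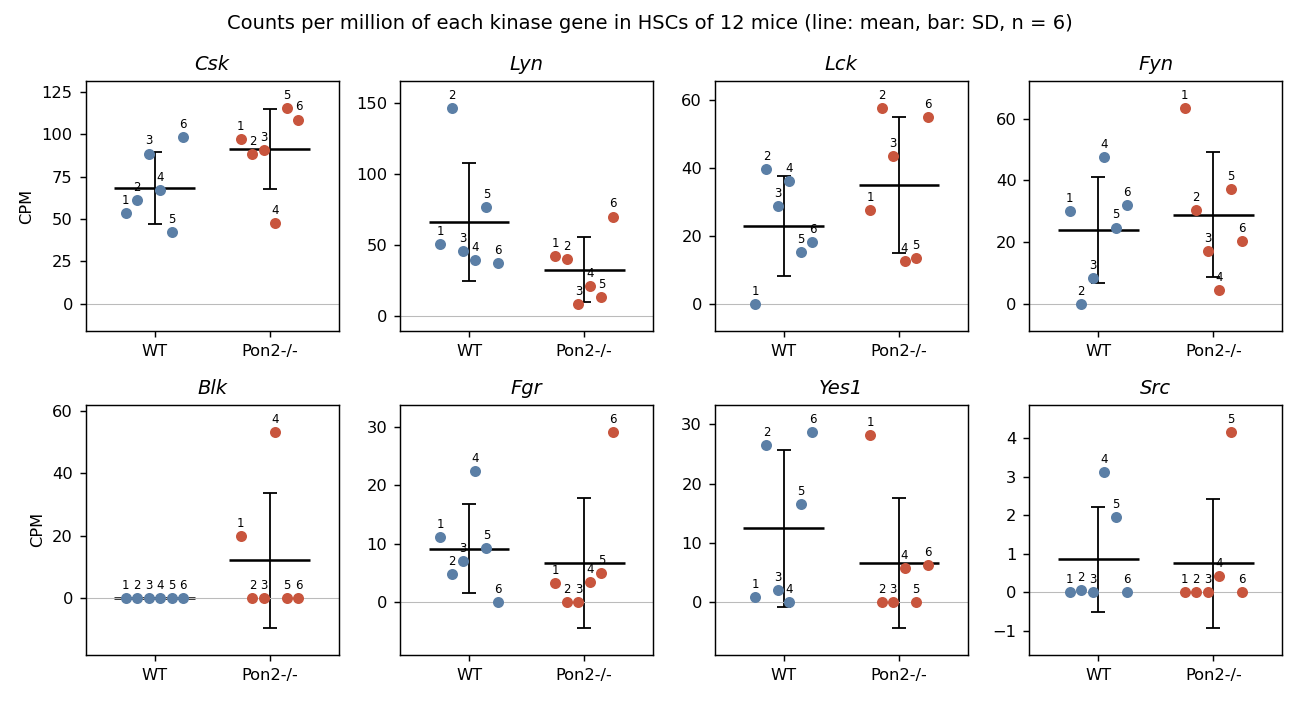
Level of each of the 8 genes in CPM (vertical axis, own scale per panel) in WT and Pon2-/- HSCs; each point is 1 mouse with its replicate number, the line is the mean and the bar the SD of 6 mice. Csk and Lyn are present in every sample, Blk only in Pon2-/- samples 1 and 4, and the genotypes overlap for every gene.

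Fgr (ENSMUSG00000028874.14, chromosome 4 from 132974095 to 133001910, plus strand), a kinase of granulocytes and monocytes, had counts in 9 of 12 samples. The WT levels were 11.2, 4.91, 7.02, 22.5, 9.22 and 0 CPM. The Pon2-/- levels were 3.29, 0, 0, 3.40, 4.997 and 29.1 CPM. Except for number 6, which had the highest level of all, the Pon2-/- samples were at or near the lower end of the WT range. The log2 fold change was -0.43 (SE 1.57, adjusted p = 1.00 in edgeR), and it was 0.065 without WT sample 4. Myeloid markers were counted in both genotypes, and their sum varied from 878.5 to 9883 CPM in WT and from 834.7 to 15039 CPM in Pon2-/- samples, with S100a8 and Lyz2 at the top. Their part in the Fgr levels was not tested.

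Yes1 (ENSMUSG00000014932.15, chromosome 5 from 32611171 to 32687057, plus strand), a close relative of Src found in many tissues, was counted in 8 of 12 samples. The WT levels were 0.934, 26.4, 2.10, 0, 16.6 and 28.7 CPM. The Pon2-/- levels were 28.2, 0, 0, 5.75, 0 and 6.31 CPM. Both genotypes held samples near 28 CPM and samples at 0. The log2 fold change was -0.89 (SE 1.82, adjusted p = 1.00 in edgeR), and it moved to -0.47 without WT sample 6 and to -2.37 without Pon2-/- sample 1.

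Src (ENSMUSG00000027646.15, chromosome 2 from 157418444 to 157471862, plus strand), the founding member of the family, was nearly missing, with 164 counts in all 12 samples together. WT samples 2, 4 and 5 had 1, 40 and 27 counts, Pon2-/- samples 4 and 5 had 6 and 90 counts, and the other 7 samples had 0 counts. The highest level was 4.16 CPM. A count of 0 allows up to 3 counts, which is 0.121 to 0.235 CPM depending on the sample and covers counting error only, because PCR copies are not independent molecules. Src was removed by the filter on low counts, and the two-sided exact permutation test between the genotypes gave p = 0.848. Only 2 genes were counted in exactly the same 5 samples as Src, namely the predicted gene Gm38043 and Pax5, a transcription factor of B cells, with 591 and 300 counts.

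Blk (ENSMUSG00000014453.3, chromosome 14 from 63372836 to 63417037, minus strand), the B lymphoid kinase, had its 1099 counts in 2 samples. There were 332 counts in Pon2-/- sample 1, or 19.8 CPM with a 95% exact Poisson interval from 17.8 to 22.1 CPM. There were 767 counts in Pon2-/- sample 4, or 53.2 CPM with an interval from 49.5 to 57.1 CPM. All 6 WT samples and the other 4 Pon2-/- samples had 0 counts. Presence in 2 of 6 against 0 of 6 samples gave p = 0.455 in a two-sided Fisher's exact test, and the exact permutation test also gave p = 0.455. With counts in only 2 samples this is the smallest p either test can give. Neither test could therefore show a difference, and nothing is concluded from them. The filter on low counts left Blk out of the edgeR comparison. Without this filter edgeR gave an adjusted p of 0.281, while DESeq2 called Blk with an adjusted p of 9.36e-13 and a fitted log2 fold change of 23.77, which rests on a group at 0 and is no measure of size.

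Markers of the B lineage were read in the same samples. All 12 markers were counted in at least 1 sample, and their sum was 25.5 to 499.9 CPM in WT and 69.3 to 10437 CPM in Pon2-/- samples, where the highest value came from 181116 counts of Ighm in Pon2-/- sample 3, which had no Blk. Cd79b and Ighm had the most counts. No B-lineage marker was counted in the 2 samples with Blk and nowhere else. Ms4a1, which encodes CD20, had 50 and 1282 counts in Pon2-/- samples 1 and 4, 281 counts in WT sample 5 and 0 in all others. Both samples with Blk thus held Ms4a1, which 1 sample without Blk also did. Cd79a, the signaling chain that Blk and Lyn phosphorylate, had 942 and 2742 counts there, but also 2183 counts in WT sample 5 and 4212 counts in Pon2-/- sample 5, where Blk was at 0. Ms4a1 and Cd79a were picked after their values were seen, and other markers did not follow Blk. Of the 12 markers, 6 were counted in Pon2-/- sample 1 and 10 in Pon2-/- sample 4. In WT sample 5 and Pon2-/- sample 5, both without Blk, 9 were counted. Pax5, Cd22, Vpreb1, Igll1, Rag1 and Fcrla were at 0 in Pon2-/- sample 1. The part of B-lineage RNA in the Blk counts was not tested.

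**Figure D2:**
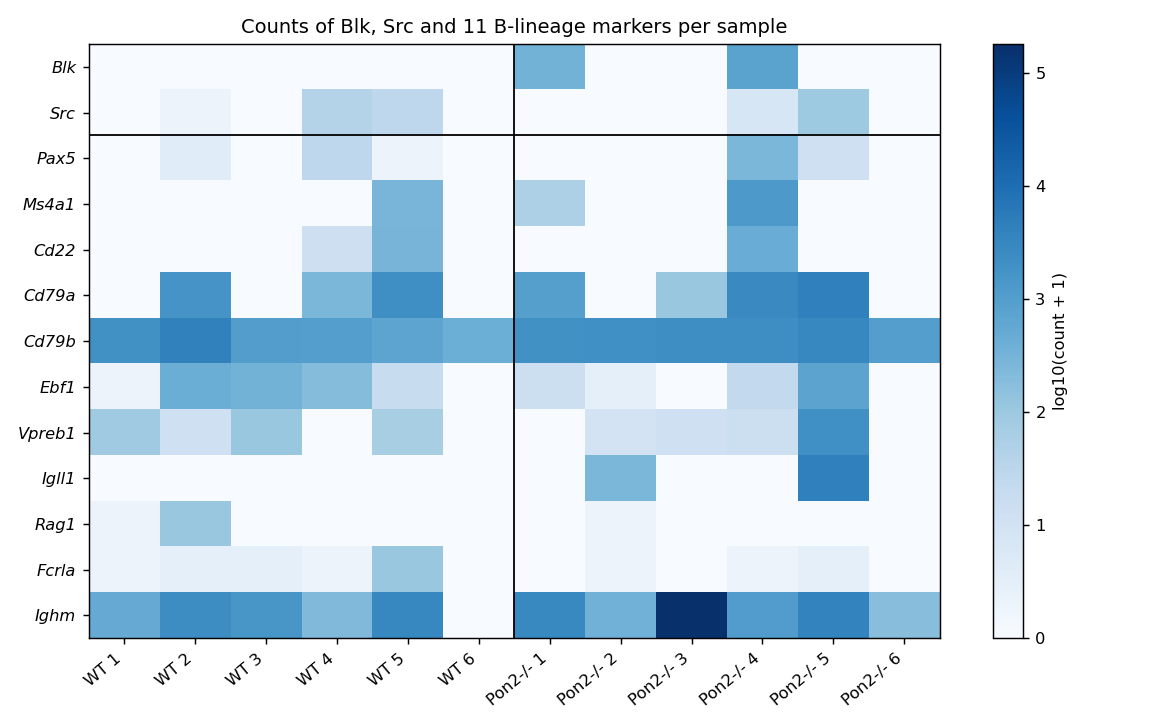
Counts of Blk, Src and 11 of the 12 B-lineage markers (rows) in 12 samples (columns, WT left and Pon2-/- right of the line), coloured by log10(count + 1). Blk is counted in Pon2-/- samples 1 and 4 alone, and Ms4a1 and Cd79a are counted there and also in samples without Blk.

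There were 37 genes with counts in exactly the same 2 samples as Blk, of 2353 genes counted in exactly 2 samples. None of them had as many counts as Blk. The 5 with the most counts were ENSMUSG00000043498.3 with 503 counts, Gm16157 with 316, Itln1 with 279, Gm26912 with 174 and Myzap with 142.

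Levels of different genes were compared per length, as CPM per kilobase of merged exons over all 12 samples. The mean level was 21.4 for Csk, 12.1 for Lyn, 9.90 for Lck, 6.04 for Fyn, 2.26 for Blk, 2.06 for Fgr, 1.28 for Yes1 and 0.185 for Src. Neighbours in this order were compared within samples with a two-sided exact sign-flip permutation test, adjusted over the 7 pairs. Csk was above Lyn in 10 of 12 samples (unadjusted p = 0.0142, adjusted p = 0.0496, exact sign-flip test). This adjusted p was below 0.05 only through the pair of Fyn and Blk, whose lower p rests on counts of 0. The pairs were also set by the order of the same means, so no order of Csk and Lyn is concluded. Blk, which was at 0 in 10 samples, was below Fyn in 11 of 12 samples, and no test is given for it. Lyn, Lck and Fyn could not be ordered beyond their spread, with adjusted p = 0.535 for both exact permutation comparisons. The same held for Fgr against Yes1 (adjusted p = 0.535, exact) and Yes1 against Src (adjusted p = 0.178, exact). The place of Blk above Fgr came from Pon2-/- samples 1 and 4, the only samples in which Blk was the higher of the pair. The pair of Csk and Lyn lost its p below 0.05 when WT sample 1, 3, 4 or 6 or any 1 Pon2-/- sample was left out.

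The spread over samples differed between the genes. The coefficient of variation of CPM over all 12 samples was 30.8% for Csk, 61.9% for Lck, 68.7% for Fyn and 73.9% for Lyn. It was 115% for Fgr, 125% for Yes1, 180% for Src and 261% for Blk. For the 11848 genes tested the median was 56.8%, with quartiles at 37.0% and 87.2%, so Csk was below the lower quartile. Of the 8 genes, Lyn, Fyn and Csk were counted in all 12 samples, as were 72.0% of the genes tested.

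The sum of the 7 kinases per length differed little in the mean, with 33.8 ± 11.9 CPM per kilobase (SD, n = 6) in WT and 33.9 ± 12.6 CPM per kilobase (n = 6) in Pon2-/- samples. What the sum was made of varied from mouse to mouse. Lyn made up 46.8% ± 15.2 of it in WT samples, from 24.7% to 66.2%, and 21.5% ± 8.78 in Pon2-/- samples, from 10.2% to 35.1%. Lck made up 22.2% ± 13.6 in WT and 36.9% ± 22.0 in Pon2-/- samples, and Fyn 18.3% ± 12.5 and 21.3% ± 15.3. The ranges of the genotypes overlapped for each of them, and no test was run on these shares. In Pon2-/- sample 4 Blk alone made up 61.7% of the sum. The level of Csk divided by the sum was 0.608 ± 0.302 (SD, n = 6) in WT and 0.834 ± 0.473 (n = 6) in Pon2-/- samples, from 0.301 in WT sample 2 to 1.64 in Pon2-/- sample 5. These are ratios of transcripts and say nothing of the phosphorylation of the proteins.

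**Figure D3:**
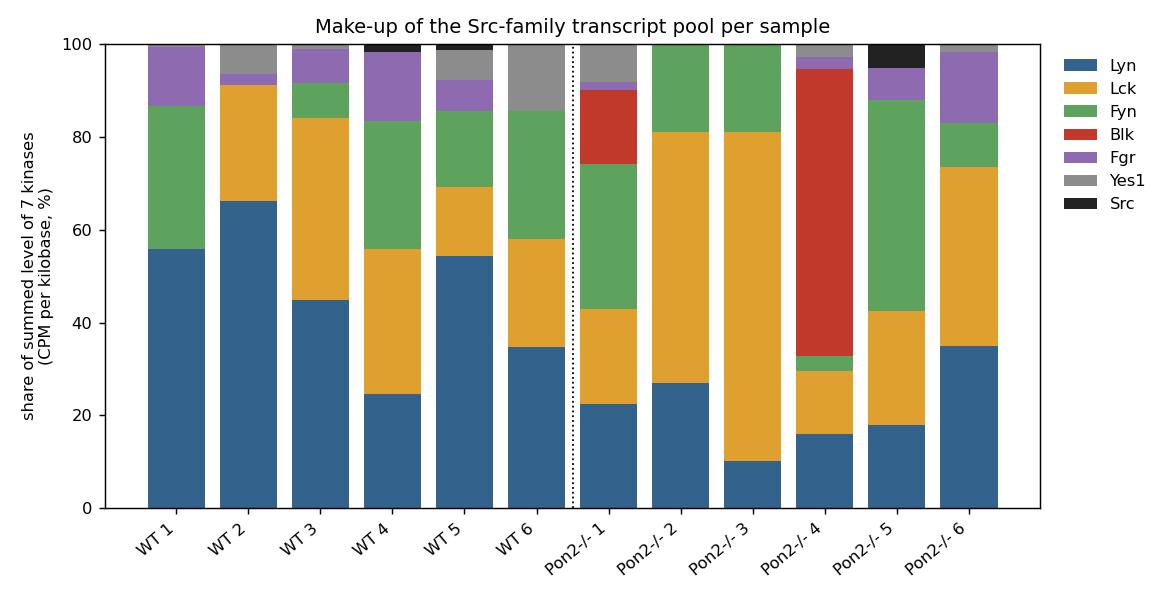
Share of each of the 7 Src-family kinases in their summed level (CPM per kilobase, %) in each sample, WT left and Pon2-/- right of the dotted line. Lyn is the largest share in 5 of 6 WT samples and in none of the Pon2-/- samples, and Blk makes up 61.7% in Pon2-/- sample 4.

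Between the genotypes, 24 of the 11848 genes tested were called by edgeR with an adjusted p under 0.05 and a log2 fold change over 1 in either direction, which is 0.203% of them. Of the 8 genes, 6 passed the filter and 0 were called. An unadjusted p below 0.05 was reached by 3.13% of the genes tested and by 0 of these 6. The genotypes did not overlap for 0.633% of the genes tested and for 0 of these 6. DESeq2, which called 305 of the 16998 genes it tested (1.79%), called 1 of the 8 genes, Blk. Without Cook's cutoff it called 4.2% of the genes tested, and again Blk alone of the 8. limma voom called 0.194% of the 11848 genes and 0 of the same 6, and like edgeR did not test Blk and Src. The SE of the log2 fold change was 0.27 for Csk and 0.53 for Lyn, below the median of 0.57 over all genes tested, but 0.93 to 1.82 for the other 4, so that for these only a very large difference could have been detected. P-values between the genotypes weigh a difference against the spread between single mice of each genotype.

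**Figure D4:**
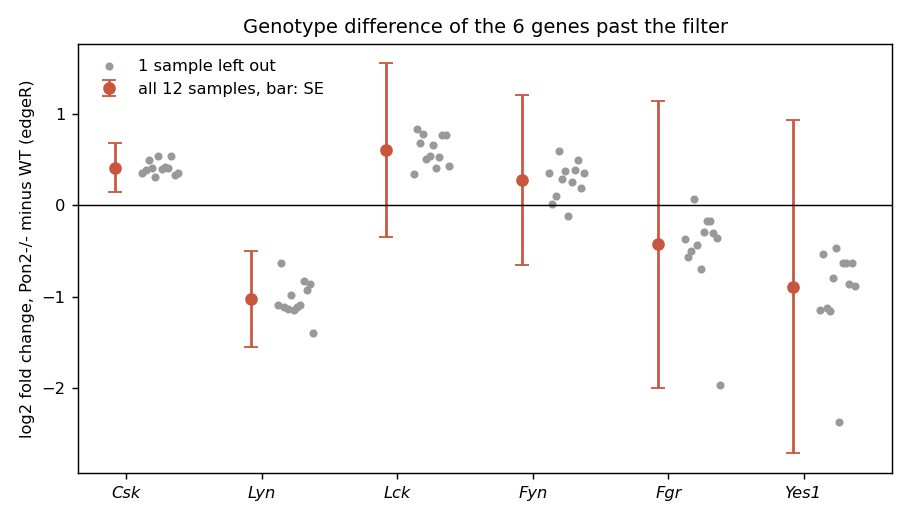
Log2 fold change (Pon2-/- minus WT, edgeR) of the 6 genes past the filter on low counts; red points with bars are the values with SE from all 12 samples and grey points are the values with 1 sample left out. Csk, Lyn, Lck and Yes1 keep their sign throughout, while Fyn and Fgr change sign once.

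The other genes of the pathway were read from 4 lists. Of 5 related kinases, among them Frk, Srms, Ptk6 and Matk, only Matk passed the filter. Matk, which like Csk phosphorylates the tail of Src-family kinases, had 129.6 ± 46.7 CPM in WT and 182.3 ± 44.9 CPM (SD, n = 6 each) in Pon2-/- samples, a log2 fold change of 0.49 (SE 0.26) that did not pass the test. With 33.9 CPM per kilobase its mean level per length was above that of Csk.

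The regulators of Src-family kinases comprised 20 genes, of which 19 were tested and 0 were called. Log2 fold changes were above 0 for 11 and below 0 for 8, with a median of 0.08 beside -0.01 over all genes tested. The highest levels per length were those of Hsp90ab1, a chaperone of kinases, and Ptpn6, which encodes the phosphatase SHP-1. An unadjusted p below 0.05 in edgeR was reached by 3.13% of all genes tested and by 1 of these 19. The 1 gene was Sla, an adaptor that dampens receptor signaling together with CBL. Its mean was 49.99 ± 7.74 CPM (SD, n = 6) in WT and 107.9 ± 54.5 CPM (n = 6) in Pon2-/- samples, with a log2 fold change of 1.11 (SE 0.34, adjusted p = 0.913 in edgeR). DESeq2 called 0 genes of this list and limma voom called 0. DESeq2 without Cook's cutoff, which called 4.2% of all genes it tested, called 1 of the 20, Sla.

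Of the 38 substrates and adaptors downstream, 33 were tested and 0 were called, with a median log2 fold change of 0.19. An unadjusted p below 0.05 in edgeR was reached by 3.13% of all genes tested and by 4 of these 33. The 4 were Hcls1, a cortactin relative of blood cells, Vav1, a guanine nucleotide exchange factor, Lcp2, the adaptor SLP-76, and Stat5b, a transcription factor of cytokine signaling. Their log2 fold changes were 0.51 (SE 0.18) for Hcls1, 0.86 (SE 0.35) for Stat5b, 0.61 (SE 0.27) for Vav1 and 0.44 (SE 0.20) for Lcp2, and none passed after adjustment over all genes (adjusted p = 1.00 for each in edgeR). DESeq2 and limma voom also called 0 genes of this list. Hcls1 and Lcp2 had its highest levels per length.

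Of the 37 receptors that signal through Src-family kinases, 28 were tested and 0 were called, with a median log2 fold change of 0.25. Fcer1g, the shared signaling chain of Fc receptors, had the highest level per length, 185.5 CPM per kilobase. An unadjusted p below 0.05 in edgeR was reached by 3.13% of all genes tested and by 1 of these 28. The 1 gene was Cxcr4, the chemokine receptor that retains HSCs in the marrow. Cxcr4 had 8.33 ± 5.75 CPM in WT and 35.5 ± 12.2 CPM (SD, n = 6 each) in Pon2-/- samples. Its log2 fold change was 2.09 (SE 0.60, adjusted p = 0.747 in edgeR). DESeq2, which called 1.79% of all genes it tested, called 3 genes of this list as higher in Pon2-/- samples, Cd4 and Cxcr4 among them. With limma voom 0 were called. Cd4 was removed by edgeR's filter and was at 0 in all WT samples. It had 90 and 119 counts in Pon2-/- samples 4 and 5 and 0 in the other Pon2-/- samples, so its call in DESeq2 rests on a group at 0.

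For each of the 6 genes past the filter, the tested genes whose log2 CPM followed it most closely over the 12 samples were looked up, as a description without a test. The highest Pearson coefficients were 0.88 for Dap3, 0.85 for Syne1 and 0.84 for Ltc4s with Lyn. For Lck they were 0.97 for Ssh1, 0.96 for Zfp511 and 0.95 for Ly9. For Fyn they were 0.95 for Tmem248, 0.94 for Usmg5 and 0.94 for Armh3. For Csk they were 0.88 for Drap1, 0.87 for Sec24b and 0.87 for Tubb6. For Fgr they were 0.93 for Gm16155, 0.92 for Hpgds and 0.92 for Ankrd37, and for Yes1 0.87 for Gm42725, 0.82 for Vps41 and 0.82 for Man2b2. The 12 points share library depth and the samples in which a gene was at 0, and each of these genes was picked from 11848 tested.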

How the data were processed

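Smart-seq2 libraries were made by the authors from sorted HSCs, trimmed with Trimmomatic 0.36, mapped to GRCm38.p5 with STAR 2.5.3a and counted per gene of GENCODE M12. The deposited values are raw counts per gene and mouse, without normalization; the column used was taken as the unstranded count, and how wells were joined is not given in the sources used here. In each file 1 line named no gene and was left out. Of 49585 genes, 49326 matched a name in GENCODE M21.

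Counts were compared in R 4.3.3 with edgeR 4.0.16 (TMM, filterByExpr, glmQLFit, glmQLFTest, genotype as the only term), with Benjamini-Hochberg adjustment over all genes tested. CPM were scaled by the TMM factors. The prior count was 2 for log2 CPM, and 0.01 was added to levels per kilobase in ratios. Exact permutation tests ran over all 924 assignments in SciPy 1.17.1. Alternatives were DESeq2 1.42.0, limma voom 3.58.1, other size factors, no filter, a replicate block, Y-linked genes as a covariate, and each sample left out in turn. Same-numbered samples were not paired, because their deviations correlated by 0.0430 at most. No 2 libraries of a genotype agreed within sampling noise (chi-square per degree of freedom of at least 161.0 over 30 pairs).

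The 8 genes and the lists were chosen with earlier results of these data known. Named in the text are the 8 genes, in each list those called, with an unadjusted p below 0.05 or without overlap, and the 2 with the highest level per length, the 3 genes most alike to each, genes counted in the same samples, and the 2 leading markers of the lineages described. Some named genes are not reported here.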

Additional observations from a re-analysis of the deposited data

Results flagged for a closer look

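In 5 of 15 groups of 6 samples (1 gene in 1 genotype), 1 sample stood apart from the others by Dixon's criterion at the 95% level. Chance alone flags about 1 in 20 groups of normally distributed values, a rate that does not hold for Blk, Fgr, Yes1 and Src, where other samples were at 0. Lyn was 146.3 CPM in WT sample 2, beside 37.7 to 76.9 CPM in the other WT samples. Blk was 53.2 CPM in Pon2-/- sample 4, beside 0 to 19.8 CPM. Fgr was 29.1 CPM in Pon2-/- sample 6, beside 0 to 4.997 CPM, Yes1 was 28.2 CPM in Pon2-/- sample 1, beside 0 to 6.31 CPM, and Src was 4.16 CPM in Pon2-/- sample 5, beside 0 to 0.416 CPM. The 5 values lay in 5 different mice, and no cause was tested.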

How the results depend on the processing

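Under 18 of 20 alternatives 0 of the genes tested among the 8 were called, where Blk and Src were tested only without the filter on low counts and by DESeq2. DESeq2 called 1 of the 8, Blk, with and without Cook's cutoff. Over all genes, 24 were called by edgeR, 8 without the filter on low counts, 305 by DESeq2, 950 by DESeq2 without Cook's cutoff and 5 with a replicate block, and 20 to 28 with 1 sample left out. With the replicate block 0 of the 6 genes past the filter were called, and the log2 fold change of Yes1 was -4.14 and that of Fgr -2.73. Of 114 recomputed log2 fold changes, 112 kept their direction and side of the threshold. Fgr turned to 0.065 without WT replicate 4 (from -1.97 to 0.065 with 1 sample left out) and Fyn to -0.12 without Pon2-/- replicate 1 (from -0.12 to 0.59). In the differences of mean log2 CPM, Fyn turned to -0.17 without WT replicate 2 (from -0.17 to 1.49), and Src to 0.30 and 0.17 without WT replicate 4 and 5 (from -1.16 to 0.30). The exact permutation p of Lyn was 0.0260 without Pon2-/- replicate 6 and that of Csk 0.0303 without Pon2-/- replicate 4. Of the neighbouring pairs in the order of levels, 2 had an adjusted p below 0.05 with all samples. With 1 sample left out there were 0 to 2, and in the WT samples alone 0. The p of Fyn and Blk rests on counts of 0 and the value added to them. The adjusted p of Csk and Lyn was below 0.05 only with that pair in the adjustment. The cause of these changes was not tested. Low counts and the presence of a gene in few samples limit Blk, Src, Fgr and Yes1, and the absence of a call does not show equal levels.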
